A study of Mus musculus with 48 samples.

Results

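The immediate early genes considered here were Nr4a1, Nr4a2, Nr4a3, Fos, Fosb, Jun, Junb, Egr1, Ier2 and Atf3, 10 genes matched by Ensembl identifier and symbol out of the 36854 genes of a count table from mouse sarcomas. Nr4a1 was chosen by a measured value, its response to radiation combined with anti-PD-1, which differed between 2 kinds of tumour. The other 9 genes were added for their known place in the same class, with earlier results of these data known. For Nr4a1 the levels and differences are therefore given as a description with no test, since every comparison below shares at least 1 group with the comparison that singled it out. All 10 genes passed the filter on low counts in every fit. Messenger RNA had been sequenced from 48 sarcomas in 8 groups. The primary tumours (p53/MCA sarcomas) arose in the gastrocnemius of p53FL/FL mice aged 6-10 weeks after an injection of Adeno-Cre, a virus that delivers the recombinase deleting p53 in the cells it enters, and then of the carcinogen MCA. The allografts were all grown from 1 cell line of such a sarcoma, injected with matrigel into the gastrocnemius of syngeneic mice, so that the 16 allografts share 1 cell line while each primary tumour arose separately. Once a tumour had reached about 150 mm3 the mouse received 200 µg of an isotype control antibody or of muDX400, an antibody that binds mouse PD-1 (a receptor that restrains T cells), followed by 0 or 20 Gy of radiation to the hind limb bearing the tumour. Tumours were taken 3 days later. There were 4 allografts and 8 primary tumours for each combination of dose and antibody, and the labels give no dose, antibody or time other than these.

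Immediate early genes are transcribed within minutes of a stimulus from factors already present in the cell, without new protein synthesis, and most of their transcripts are short-lived. The AP-1 factors are dimers of Fos and Jun proteins, the Nr4a proteins are orphan nuclear receptors without a known classical ligand, Egr1 is a zinc finger factor, Ier2 is a small nuclear protein, and Atf3 is a factor of the ATF/CREB family that is also a target of the integrated stress response. In immune cells the Nr4a genes respond to antigen receptor signals and are known from exhausted T cells, and in muscle and fibroblasts the class responds to injury, serum and hypoxia. Levels on day 3 are therefore levels long after the irradiation itself, in tumours that hold sarcoma cells, host cells and some muscle.

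Total counts ran from 31.8 M to 54 M reads per tumour, with a median of 41.2 M, and the lowest count of any member in any tumour was 44, for Nr4a3. Levels are CPM (counts over library size in M reads), with library sizes scaled by TMM, edgeR's trimmed mean of log ratios. The mesenchymal markers Col1a1, Col1a2, Col3a1, Pdgfra and Pdgfrb were all above 1 CPM in every tumour. Skeletal muscle markers were also present, from 12.8 to 73879 CPM summed over 10 genes. Trp53, the gene deleted in the sarcoma cells, was still counted at 25.7 to 45.8 CPM in the allografts and 20.2 to 60.7 CPM in the primary tumours. This count covers all exons and host cells alike, so it does not check the deletion.

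Per kilobase of exon, the most abundant member over the 48 tumours was Jun at 81.0 CPM per kb, followed by Junb at 71.7, Ier2 at 30.6 and Egr1 at 24.8 CPM per kb. Nr4a1 lay at 17.3, Fos at 11.2, Nr4a2 at 10.9 and Atf3 at 10.1 CPM per kb. Nr4a3 at 2.25 and Fosb at 2.16 CPM per kb were the least abundant. Exons of Jun overlap those of Junos and exons of Junb those of Prdx2, in both cases on the opposite strand. Whether counting used strand is not given in the sources used here, so the levels of Jun and Junb could hold reads of their neighbours.

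Since the Nr4a transcripts varied together between tumours of a group, their promoters are shown with that of Fos, the founding AP-1 gene, for comparison. Of the 10 members, 8 had a window of 250 bases before to 50 bases after the annotated start in the RefSeq promoter table (build GRCm38.p6). Capitals mark the core pentamer TGACG, on either strand, of the cAMP response element (CRE). This pentamer was added as a search motif after the data had been examined. The Nr4a1 window is chr15:101266596-101266895 on the plus strand, Nr4a2 is chr2:57123954-57124253 on the minus strand, Nr4a3 is chr4:48045055-48045354 on the plus strand and Fos is chr12:85473640-85473939 on the plus strand. Each is written 5′ to 3′ along its gene.
Nr4a1: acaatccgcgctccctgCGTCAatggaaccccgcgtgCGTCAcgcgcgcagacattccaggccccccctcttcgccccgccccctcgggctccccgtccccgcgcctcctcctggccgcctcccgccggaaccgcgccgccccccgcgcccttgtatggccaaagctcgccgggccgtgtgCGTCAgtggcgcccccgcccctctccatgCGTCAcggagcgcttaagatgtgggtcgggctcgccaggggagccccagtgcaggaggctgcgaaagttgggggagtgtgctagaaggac
Nr4a2: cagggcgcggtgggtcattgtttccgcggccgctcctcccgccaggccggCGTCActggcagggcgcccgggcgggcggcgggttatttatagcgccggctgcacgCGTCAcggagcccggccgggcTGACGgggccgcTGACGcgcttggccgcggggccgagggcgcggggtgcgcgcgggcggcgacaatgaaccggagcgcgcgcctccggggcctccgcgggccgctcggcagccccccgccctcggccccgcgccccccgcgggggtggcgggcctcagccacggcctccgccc
Nr4a3: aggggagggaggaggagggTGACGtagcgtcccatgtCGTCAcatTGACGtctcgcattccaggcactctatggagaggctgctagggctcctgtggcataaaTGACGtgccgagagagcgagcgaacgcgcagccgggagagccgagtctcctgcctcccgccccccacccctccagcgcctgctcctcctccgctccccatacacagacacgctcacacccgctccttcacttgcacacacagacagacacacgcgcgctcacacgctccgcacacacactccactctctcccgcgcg
Fos: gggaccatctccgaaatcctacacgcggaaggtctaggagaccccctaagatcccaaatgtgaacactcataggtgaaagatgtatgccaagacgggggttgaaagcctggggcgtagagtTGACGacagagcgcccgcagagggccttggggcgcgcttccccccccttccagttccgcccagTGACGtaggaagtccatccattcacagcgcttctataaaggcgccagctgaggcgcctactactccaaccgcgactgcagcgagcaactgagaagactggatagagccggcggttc
The windows of Nr4a1, Nr4a2 and Nr4a3 each held 4 pentamers, that of Fos held 2, those of Fosb, Junb and Atf3 held 1 each, and that of Jun held 0. Of 32851 mouse windows of the same length, 20.8% held at least 1 pentamer and 0.231% held 4 or more. The whole palindromic CRE was in 0 of the 8 member windows and in 1.79% of all windows. The AP-1 site TGANTCA was in 0 of 8 and in 7.81% of all windows, and the CArG box bound by serum response factor was in 0 of 8 and in 1.63%. The CRE contains the pentamer, so any whole CRE would also have been counted as one. These matches describe letters in a window and no binding was measured. Sites outside the windows were not searched, and Egr1 and Ier2 had no window.

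Without treatment, the members with the widest differences between the kinds of tumour were those of the Nr4a family. In the comparison of primary tumours with allografts at 0 Gy with isotype, 1 of the 9 members other than Nr4a1 was higher in the primary tumours (Jun) and 2 were lower (Nr4a2 and Nr4a3) by edgeR's quasi-likelihood test at an adjusted p below 0.05. Of all 17357 genes tested, 6.03% were called higher and 3.99% lower. Nr4a1 (chromosome 15, 101254269 to 101274795, GRCm38, plus strand) stood at 160, 313, 142.8 and 75.9 CPM in the 4 allografts, and between 10.4 and 38.9 CPM with a median of 15.8 CPM in the 8 primary tumours. Every allograft lay above every primary tumour. The fitted log2 difference was -3.13 (SE 0.42). Nr4a3 (chromosome 4, 48045153 to 48086447, plus strand) stood at 44.95, 55.1, 33.6 and 37.3 CPM in the allografts and between 1.27 and 20.6 CPM with a median of 3.35 CPM in the primary tumours, again without overlap. Groups did not overlap, in the direction of lower primary tumours, for 2.89% of all genes. Its log2 fold change was -2.89 (SE 0.58, edgeR adjusted p = 0.0091).

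Nr4a2 (chromosome 2, 57106830 to 57124003, minus strand) stood at 114.6, 148, 102.5 and 81.4 CPM in the allografts and between 10.9 and 102.2 CPM with a median of 15.7 CPM in the primary tumours. The groups overlapped through 1 primary tumour, replicate 7, at 102.2 CPM, which was also the highest for Nr4a3. The log2 fold change was -2.10 (SE 0.56, edgeR adjusted p = 0.0333). The Nr4a2 call was lost when any 1 of the 4 allografts was left out, with edgeR adjusted p between 0.0643 and 0.100, while that of Nr4a3 held. No primary tumour was left out in this comparison. T cell markers were also lower in the primary tumours, with 4 of 5 called, and their summed level ran from 36.3 to 77.5 CPM in the allografts and from 11.99 to 51.0 CPM in the primary tumours. Of the neutrophil markers 2 of 5 were called lower, and the summed level ran from 64.5 to 212 CPM in the allografts and from 13.6 to 79.8 CPM in the primary tumours. The part of these cells in the Nr4a difference was not tested, and in bulk tissue fewer cells of a type and less RNA per cell cannot be told apart. All 4 of these allografts carried animal identifiers starting with another digit than all 8 primary tumours, so identifier series and tumour kind cannot be told apart here. The allografts also share 1 cell line, so a trait of that line cannot be told apart from tumour kind either.

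Irradiated allografts had lower Nr4a levels than unirradiated ones, but in the main fit Nr4a2 and Nr4a3 did not pass the threshold within either antibody arm. Under isotype Nr4a1 stood at 30.1, 44.5, 50.6 and 40.1 CPM after 20 Gy, below all 4 unirradiated allografts listed above. Its log2 difference was -2.03 (SE 0.69). Nr4a2 stood at 26.3, 40.8, 49.4 and 47.97 CPM after 20 Gy, and Nr4a3 at 3.89, 10.3, 15.8 and 13.6 CPM. For neither gene did the irradiated and the unirradiated allografts overlap, a pattern in that direction that 4.67% of all 17746 genes showed. The log2 fold change was -1.41 for Nr4a2 (SE 0.48, edgeR adjusted p = 0.113) and -1.94 for Nr4a3 (SE 0.63, edgeR adjusted p = 0.0981). Of the 9 members other than Nr4a1, 0 were called lower, against 0.744% of all genes. By unadjusted p under 0.05, Nr4a2 and Nr4a3 passed on the lower side and Atf3 on the higher, where 18.2% of all genes passed in either direction. DESeq2 called both genes lower (adjusted p = 0.0337 and 0.0174).

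Under anti-PD-1 the unirradiated allografts stood at 188, 45.7, 131.7 and 367 CPM for Nr4a1 and the irradiated ones at 29.4, 15.8, 35.2 and 150 CPM, a log2 difference of -1.61 (SE 0.68). Replicate 4 of the irradiated group stood apart at 150 CPM and made the groups overlap. The same tumour was the highest of its group for Nr4a2 at 83.8 CPM, against 14.03 to 31.3 CPM in the other 3, and for Nr4a3 at 29.9 CPM, against 3.69 to 8.52 CPM. The log2 fold change was -1.35 for Nr4a2 (SE 0.48, edgeR adjusted p = 0.131) and -1.49 for Nr4a3 (SE 0.63, edgeR adjusted p = 0.201). Without that tumour the changes were -2.17 and -2.59 and both passed, with edgeR adjusted p = 0.0107 and 0.0176. The isotype comparison, which does not hold that tumour but shares the estimate of the spread with it, then passed as well, at 0.0286 and 0.0311. With the first digit of the animal identifier as a covariate the isotype changes shrank to -1.05 for Nr4a1, -0.84 for Nr4a2 and -0.99 for Nr4a3. Within the isotype arm 3 of the 4 irradiated allografts carried a digit that 0 of the 4 unirradiated ones had. Xist was above 10 CPM in 1 of 4 unirradiated and 3 of 4 irradiated allografts of each antibody arm. With Xist as a covariate 2.82% of all genes were called in isotype allografts, against 5.14% without it.

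In primary tumours neither Nr4a2 nor Nr4a3 was called with dose, and the difference from the allografts was not called either in the fit of all tumours. Under isotype Nr4a1 ran from 10.4 to 38.9 CPM (median 15.8 CPM) at 0 Gy and from 12.9 to 28.6 CPM (median 22.1 CPM) at 20 Gy, a log2 difference of 0.12 (SE 0.40). Nr4a2 differed by -0.39 (SE 0.51, edgeR adjusted p = 0.646) and Nr4a3 by 0.13 (SE 0.45, edgeR adjusted p = 0.876), with 95% intervals of -1.44 to 0.66 and -0.79 to 1.05. Under anti-PD-1 Nr4a1 ran from 12.7 to 68.5 CPM (median 22.5 CPM) at 0 Gy and from 20.0 to 235 CPM (median 46.6 CPM) at 20 Gy, a log2 difference of 1.35 (SE 0.40). The groups overlapped, and replicate 2 of the irradiated group alone stood at 235 CPM. Without it the log2 difference was 0.75. Nr4a2 differed by 0.82 (SE 0.52, edgeR adjusted p = 0.355) and Nr4a3 by 1.07 (SE 0.45, edgeR adjusted p = 0.146). Markers of other cells also differed in that comparison, in which 6.06% of all genes were called higher. Of the macrophage markers 1 of 6 was called higher (Cd68, log2 fold change 0.95), with a summed level from 1251 to 2562 CPM at 0 Gy and from 711.5 to 4778 CPM at 20 Gy. The 10 muscle markers had log2 fold changes of 1.79 to 3.27, of which 0 were called, and summed levels from 71.1 to 6911 CPM (median 1245 CPM) at 0 Gy and from 12.8 to 73879 CPM (median 1769 CPM) at 20 Gy. Of the T cell markers 0 of 5 were called. Of the neutrophil markers 2 of 5 were called higher (Csf3r and Retnlg) with a summed level from 10.8 to 385 CPM (median 30.7 CPM) at 0 Gy and from 37.7 to 754 CPM (median 235 CPM) at 20 Gy. The part of these cells in the Nr4a1 difference was not tested.

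**Figure D1:**
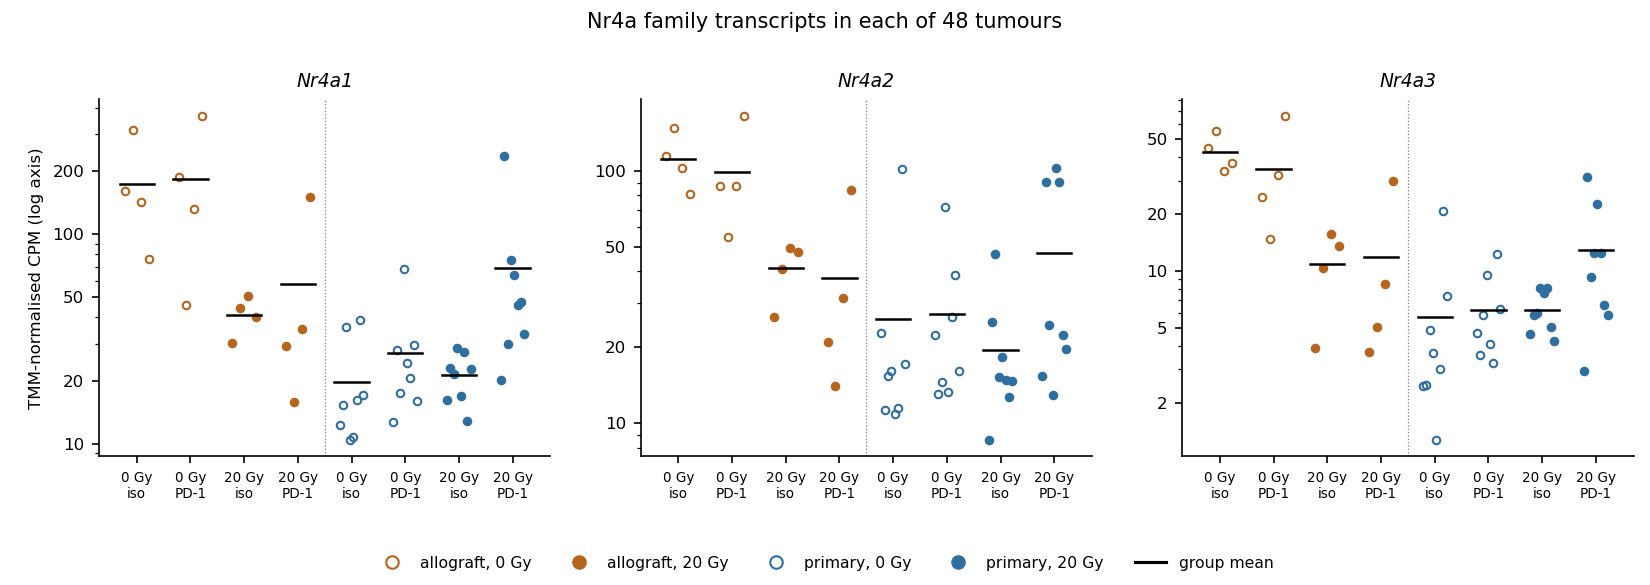
TMM-normalised CPM of Nr4a1, Nr4a2 and Nr4a3 (vertical log axes) in each of 48 tumours, by tumour kind, dose and antibody; each circle is 1 tumour, open at 0 Gy and filled at 20 Gy, and bars are group means (n = 4 allografts or 8 primary tumours). Nr4a1 in the unirradiated isotype allografts, at 75.9 to 313 CPM, lies above all 8 primary tumours of the same treatment, at 10.4 to 38.9 CPM.

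Ordered by mean level, Nr4a1 was highest in the unirradiated allografts, at 183 ± 136.02 CPM under anti-PD-1 and 173 ± 100 CPM under isotype (SD, n = 4 each). Next came the irradiated primary tumours under anti-PD-1, at 68.8 ± 69.4 CPM (n = 8), and the irradiated allografts, at 57.5 ± 61.9 CPM under anti-PD-1 and 41.3 ± 8.61 CPM under isotype (n = 4 each). The other primary tumours stood at 27.1 ± 17.7 CPM (0 Gy with anti-PD-1), 21.2 ± 5.49 CPM (20 Gy with isotype) and 19.6 ± 11.3 CPM (0 Gy with isotype, n = 8 each). Among neighbours in this order only the unirradiated isotype allografts and the irradiated primary tumours under anti-PD-1 differed by more than the larger of their SDs. Single tumours set part of this order. Without the tumour at 235 CPM the irradiated anti-PD-1 primary tumours averaged 45.1 ± 19.5 CPM (n = 7), and without the tumour at 150 CPM the irradiated anti-PD-1 allografts averaged 26.8 ± 9.93 CPM (n = 3), below the 41.3 CPM of the isotype ones.

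Anti-PD-1 alone moved none of the 9 members other than Nr4a1 past the threshold in either kind of tumour at either dose. Of all genes tested, 0% were called in each of these 4 comparisons. By unadjusted p under 0.05, 0 of the 9 members other than Nr4a1 passed in 3 of the comparisons and 2 passed in the irradiated primary tumours, where 1443 of 17770 genes did so. These 2 were Nr4a2 and Nr4a3, with log2 fold changes of 1.27 (SE 0.52) and 1.06 (SE 0.45) and an edgeR adjusted p = 0.596 for each. Irradiated primary tumours ran from 8.58 to 46.9 CPM of Nr4a2 under isotype and from 12.9 to 103.03 CPM under anti-PD-1, where 3 of the 8 tumours stood at about 90 CPM or above (90.5, 103.03 and 90.1 CPM) and the other 5 at 24.5 CPM or below. Nr4a1 differed by 1.70 (SE 0.41) in that comparison, with 0.47 (SE 0.40) at 0 Gy, and without the primary tumour at 235 CPM the 1.70 became 1.09. In the allografts it differed by 0.49 (SE 0.67) at 20 Gy, which became -0.68 without the allograft at 150 CPM, and by 0.06 (SE 0.66) at 0 Gy.

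The comparison that singled out Nr4a1 set tumours given both treatments against those given neither, in each kind of tumour. Nr4a1 differed by -1.55 (SE 0.68) in the allografts and by 1.82 (SE 0.41) in the primary tumours, and the difference between the kinds was 3.40 (SE 0.78). Without the allograft at 150 CPM the difference between the kinds was 4.499 and the allograft difference -2.71. Without the primary tumour at 235 CPM the difference between the kinds was 2.79 and the primary difference 1.23. The same quantities were -1.54 (SE 0.48), 0.88 (SE 0.52) and 2.44 (SE 0.84) for Nr4a2 and -1.82 (SE 0.63), 1.19 (SE 0.46) and 3.03 (SE 0.81) for Nr4a3. The choice of Nr4a1 used this comparison, so these values are a description, with no calls. Markers of other cells also differed with the combination, and they are given in the same way. In the primary tumours the 5 neutrophil markers had log2 differences from 2.45 (Csf3r) to 4.06 (Retnlg), with summed levels from 13.6 to 79.8 CPM without treatment and from 37.7 to 754 CPM with both treatments. The 10 muscle markers differed there by 1.54 (Myh2) to 3.32 (Mylpf), with sums from 58.4 to 5566 CPM and from 12.8 to 73879 CPM, and the macrophage markers by -0.14 (Mrc1) to 0.80 (Cd68), with sums from 1445 to 2763 CPM and from 711.5 to 4778 CPM. In the allografts the macrophage markers differed by 0.34 (Mrc1) to 1.65 (Adgre1), with sums from 1299 to 1979 CPM and from 2306 to 4496 CPM that did not overlap. The neutrophil markers differed there by -0.06 (S100a9) to 1.63 (Csf3r), with sums from 64.5 to 212 CPM and from 158 to 332 CPM, and the muscle markers by -0.71 (Ckm) to 0.73 (Mb), with sums from 74.4 to 18165 CPM and from 1574 to 11053 CPM. The T cell markers differed by 0.78 (Cd4) to 1.35 (Cd3e) in the primary tumours, with sums from 11.99 to 51.0 CPM and from 3.89 to 208 CPM, and by 0.53 (Cd3e) to 1.23 (Cd4) in the allografts, with sums from 36.3 to 77.5 CPM and from 53.2 to 159 CPM. The part of these cells in the Nr4a differences was not tested.

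The dose effect was also compared between the kinds in 1 fit of all 48 tumours. Under isotype the primary minus allograft difference of the dose effect was 1.03 for Nr4a2 (SE 0.82, edgeR adjusted p = 0.639) and 2.09 for Nr4a3 (SE 0.79, edgeR adjusted p = 0.467), and it was 2.17 (SE 0.76) for Nr4a1. Under anti-PD-1 it was 2.20 (SE 0.83, edgeR adjusted p = 0.905), 2.61 (SE 0.80, edgeR adjusted p = 0.832) and 3.01 (SE 0.77) for Nr4a2, Nr4a3 and Nr4a1. In the anti-PD-1 comparison 0 members other than Nr4a1 and 0% of all 19327 genes were called, and under isotype 0 members and 0.00517% of genes. By unadjusted p under 0.05, 2 of the 9 passed in each, where 9.9% of all genes did under isotype and 4.77% under anti-PD-1. They were Nr4a3 and Jun under isotype, with Jun at -0.85 (SE 0.30) opposite in sign to Nr4a3, and Nr4a2 and Nr4a3 under anti-PD-1. Without the primary tumour at 235 CPM the anti-PD-1 difference of Nr4a1 was 2.39, and without the allograft at 150 CPM it was 4.11.

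**Figure D2:**
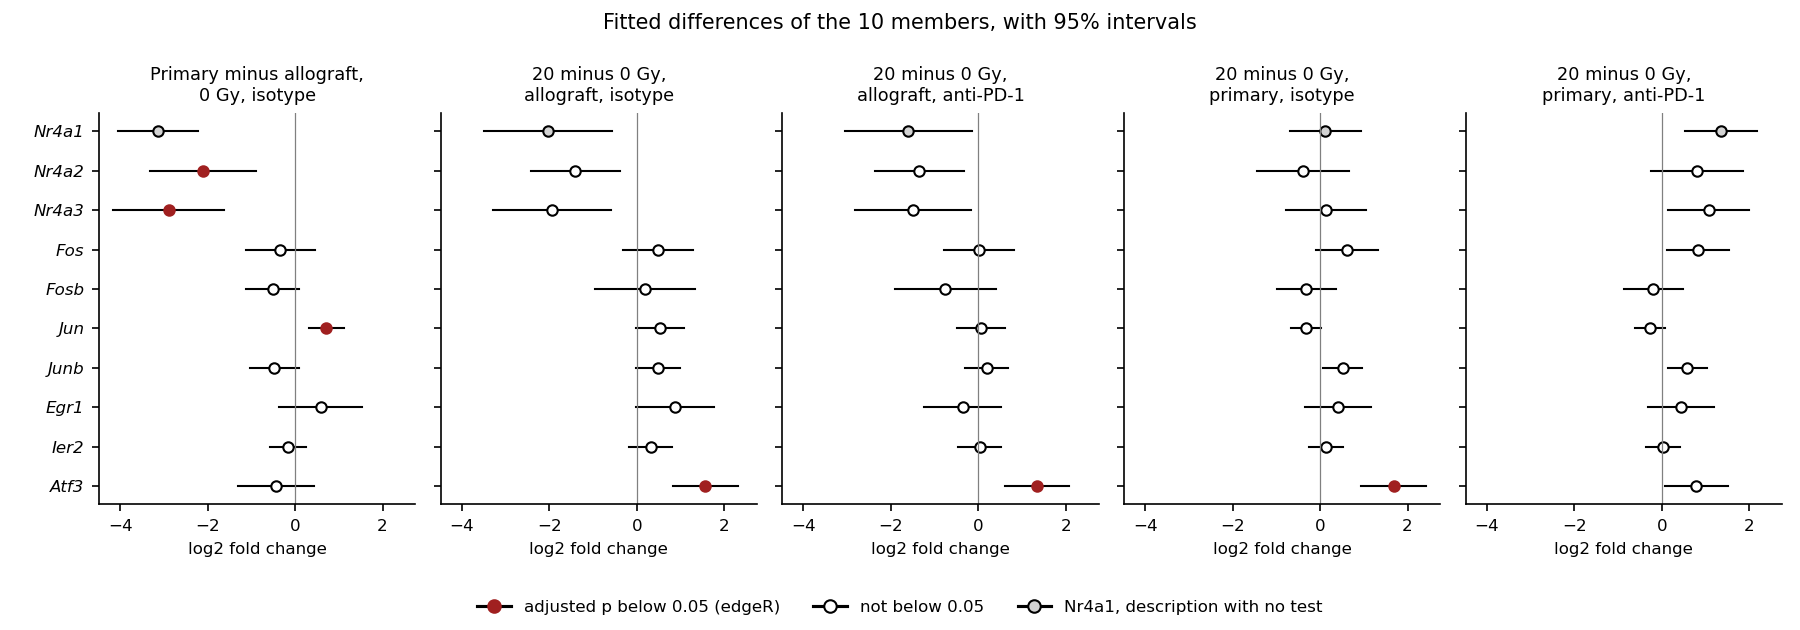
Fitted log2 fold changes (points) with 95% intervals (lines) of the 10 members in the baseline comparison and in 4 comparisons of 20 with 0 Gy, from edgeR fits of 12, 16 or 32 tumours. Filled red points have an edgeR adjusted p below 0.05 over all genes tested. Grey points are Nr4a1, for which no test is given and whose intervals are a description only. Atf3 is the only red point in the 4 dose comparisons, in 3 of them.

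Of the AP-1 subunits, Jun alone was called in the 13 planned comparisons with a test. Jun (chromosome 4, 95049034 to 95052222, minus strand) stood at 189, 149, 236 and 172 CPM in the unirradiated isotype allografts and between 216 and 411 CPM with a median of 296 CPM in the matching primary tumours. A single allograft, at 236 CPM, overlapped the primary tumours. The log2 fold change was 0.72 (SE 0.18, edgeR adjusted p = 0.0271), and without allograft replicate 1, 2 or 4 the adjusted p was 0.074, 0.103 or 0.0888. After 20 Gy the allografts stood at 269, 267, 240 and 282 CPM, above all unirradiated ones, with a log2 fold change of 0.53 (SE 0.26, edgeR adjusted p = 0.294). Groups that did not overlap in that direction made up 9.59% of all genes. In primary tumours the change with dose was -0.33 (SE 0.17, edgeR adjusted p = 0.202) under isotype. By mean level Jun was highest in the primary tumours at 0 Gy (308 ± 64.6 and 301 ± 67.8 CPM, SD, n = 8 each) and lowest in the isotype allografts at 0 Gy (186 ± 36.9 CPM, n = 4), although no pair of neighbours in that order differed by more than the larger SD.

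Fos (chromosome 12, 85473890 to 85477273, plus strand) was highest on average in the irradiated primary tumours under anti-PD-1, at 36.1 ± 13.5 CPM, and lowest in the primary tumours at 0 Gy with isotype, at 16.8 ± 8.23 CPM (SD, n = 8 each). Irradiated and unirradiated primary tumours overlapped in both arms. The log2 fold change with dose was 0.61 under isotype (SE 0.35, edgeR adjusted p = 0.244) and 0.83 under anti-PD-1 (SE 0.35, edgeR adjusted p = 0.143). Junb (chromosome 8, 84974484 to 84978718, minus strand), a Jun protein that can restrain Jun activity, ran from 51.7 to 176 CPM (median 111.4 CPM) at 0 Gy and from 131.99 to 190 CPM (median 158 CPM) at 20 Gy in isotype primary tumours. Its log2 fold change was 0.52 (SE 0.22, edgeR adjusted p = 0.110), and under anti-PD-1 it was 0.58 (SE 0.22, edgeR adjusted p = 0.0987). Averaging the dose effect over both antibody arms, a comparison added after these values were seen, called Fos (0.72, edgeR adjusted p = 0.0293), Junb (0.55, adjusted p = 0.0091) and Atf3 higher in primary tumours, 3 of the 9 members, where 26.3% of all genes were called in either direction. Fosb (chromosome 7, 19302696 to 19310051, minus strand), a further Fos subunit, had log2 fold changes between -0.76 and 0.19 in the 4 dose comparisons and passed in none of them. The -0.76, in anti-PD-1 allografts, was -0.0011 without replicate 4 of the unirradiated group (51.6 CPM, the other 3 at 12.5 to 13.8 CPM) and -1.53 without replicate 4 of the irradiated group.

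Egr1 (chromosome 18, 34859823 to 34864984, plus strand) and Ier2 (chromosome 8, 84661331 to 84662852, minus strand) were not called in any of the 13 comparisons. Egr1 stood at 79.3, 63.0, 78.5 and 51.1 CPM in the unirradiated isotype allografts and at 167, 117.5, 83.8 and 126.9 CPM after 20 Gy. The irradiated allografts all lay above the others, as for 9.59% of all genes, with a log2 fold change of 0.88 (SE 0.42, edgeR adjusted p = 0.278). Under anti-PD-1 the groups overlapped and the change was -0.36 (SE 0.42, edgeR adjusted p = 0.687). In isotype primary tumours Egr1 ran from 42.0 to 189 CPM at 0 Gy and from 65.8 to 248 CPM at 20 Gy. Ier2 had group means from 39.7 to 54.4 CPM. Its 95% interval for the dose effect in isotype primary tumours, -0.24 to 0.53, excludes a log2 change of 1 in either direction. The 8 isotype primary tumours given 20 Gy lay between 41.0 and 46.5 CPM (SD 1.92 CPM), against SDs of 6.22 to 16.4 CPM in the other groups.

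**Figure D3:**
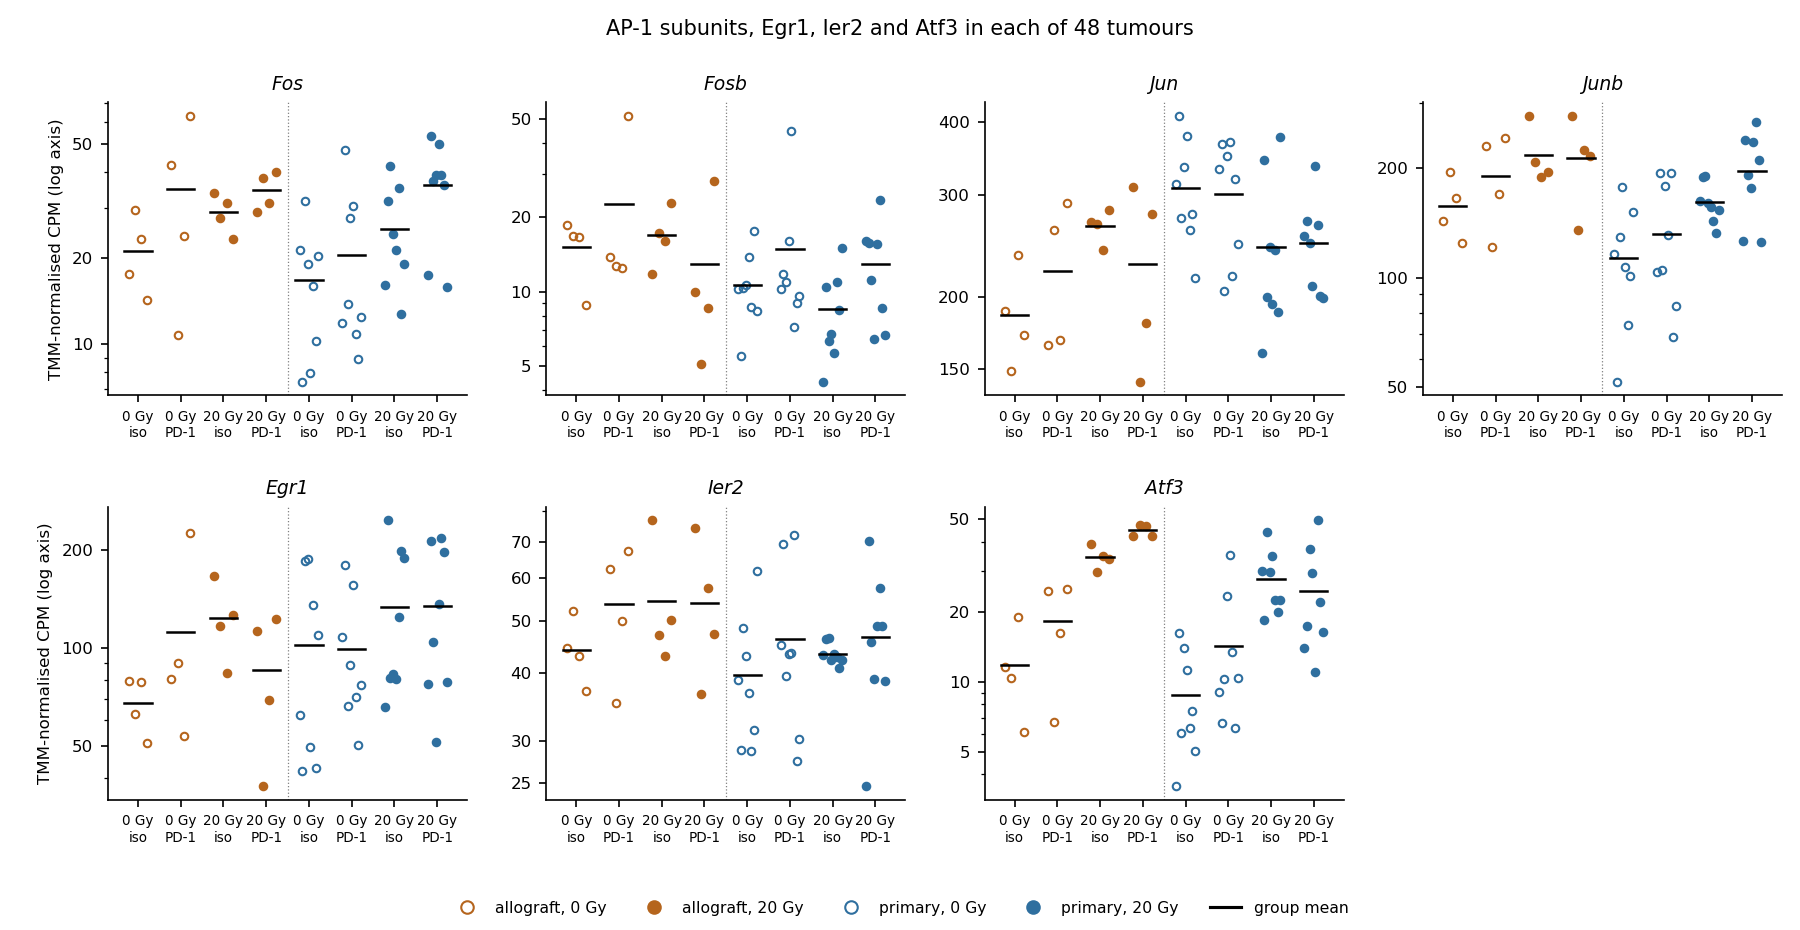
TMM-normalised CPM of the 7 members outside the Nr4a family (vertical log axes, a separate scale for each gene) in each of 48 tumours; circles, fills and bars as in the plot of the Nr4a family. In both kinds of tumour the irradiated isotype tumours lie above all unirradiated isotype tumours for Atf3, while the other genes overlap in the primary tumours.

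Among the 9 members with a test, Atf3 alone was called in the 4 dose comparisons within an antibody arm, and it was higher after 20 Gy. It passed in the isotype allografts, the anti-PD-1 allografts and the isotype primary tumours, where 4.40%, 3.13% and 7.85% of all genes were called higher and 0 members were called lower, against 0.744%, 0.828% and 6.64%. Of these 9 members 0 passed in the anti-PD-1 primary tumours, where 6.06% of genes were called higher and 1.86% lower. Atf3 (chromosome 1, 191170296 to 191218039, minus strand) stood at 11.6, 10.4, 19.0 and 6.10 CPM in the unirradiated isotype allografts and at 39.3, 29.7, 35.0 and 33.9 CPM after 20 Gy. The groups did not overlap (9.59% of all genes in that direction), and the log2 fold change was 1.57 (SE 0.35, edgeR adjusted p = 0.0174). Under anti-PD-1 it stood at 24.7, 6.76, 16.2 and 25.1 CPM at 0 Gy and at 42.6, 47.5, 47.1 and 42.5 CPM at 20 Gy, again without overlap (5.83% of all genes in that direction), with a log2 fold change of 1.33 (SE 0.34, edgeR adjusted p = 0.0434). In isotype primary tumours it ran from 3.55 to 16.3 CPM (median 6.92 CPM) at 0 Gy and from 18.4 to 44.3 CPM (median 26.1 CPM) at 20 Gy. Every irradiated tumour lay above every unirradiated one, as for 1.50% of all genes, and the log2 fold change was 1.68 (SE 0.36, edgeR adjusted p = 0.0020). Under anti-PD-1 the primary tumours overlapped, from 6.36 to 35.2 CPM (median 10.3 CPM) at 0 Gy and from 11.03 to 49.7 CPM (median 19.7 CPM) at 20 Gy, with a log2 fold change of 0.79 (SE 0.36, edgeR adjusted p = 0.170). The difference between the antibody arms was not tested. In the isotype primary tumours, 1 of 5 neutrophil markers (Csf3r, 1.96) and 2 of 6 macrophage markers (Cd68 at 0.68 and C1qa at 0.84) were also called higher after 20 Gy. The summed neutrophil markers ran from 13.6 to 79.8 CPM at 0 Gy and from 31.5 to 771 CPM at 20 Gy, and the macrophage markers from 1445 to 2763 CPM and from 1662 to 3298 CPM. Cd68 was called in both allograft comparisons as well (0.89 in each), and the macrophage sums ran from 1299 to 1979 CPM at 0 Gy and from 2290 to 3543 CPM at 20 Gy under isotype. The part of these cells in the Atf3 difference was not tested.

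The allograft calls of Atf3 depended on the tumours and the fit. In 1 fit of all 48 tumours the log2 fold changes were 1.55 and 1.30 with edgeR adjusted p = 0.0809 and 0.185. Without allograft replicate 1, 2 or 4 of the unirradiated isotype group the isotype call was lost, at 0.0579 to 0.0763. The anti-PD-1 call was lost without any 1 of 12 allografts, at up to 0.115. The primary isotype call held in all 40 alternatives run. The dose effect on Atf3 differed between kinds by 0.12 under isotype (SE 0.57, 95% interval -1.03 to 1.27, edgeR adjusted p = 0.945) and by -0.52 under anti-PD-1 (SE 0.57, 95% interval -1.67 to 0.63, edgeR adjusted p = 0.991). Of the integrated stress response, a pathway known to induce Atf3 through Atf4, 5 of 6 genes were higher in isotype allografts, where 4.40% of all genes were called higher, with a median log2 fold change of 1.24 against -0.0019 over all genes. They included Ddit3 (1.33), Sesn2 (1.14), Trib3 (1.36) and Asns (0.82). In anti-PD-1 allografts 2 of 6 were called higher (3.13% of all genes), Ddit3 at 1.18 and Sesn2 at 0.93, with a median of 0.67 over the 6 genes. In isotype primary tumours 2 of 6 were called (7.85% of all genes), Ddit3 at 0.98 and Sesn2 at 0.84, and in anti-PD-1 primary tumours 0 of 6 (6.06%). The part of this pathway in the Atf3 difference was not tested.

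Some members, though not Atf3, varied together between tumours given the same treatment. Log2 CPM was centred on each group's mean and the 45 pairs of members were correlated over the 48 tumours, with p from 100000 permutations within groups and adjusted over the 45 pairs. A total of 44 pairs had a positive r. Pairs with Nr4a1 are given without p, and of the 36 others 11 passed an adjusted p of 0.05, all 11 positive in each kind of tumour. The strongest was Junb with Ier2 (r = 0.864, rho = 0.890, permutation p = 1e-05 for both, adjusted 0.00011, n = 48). The p of 1e-05 is the smallest these permutations can give. Within the Nr4a family r was 0.752 for Nr4a2 with Nr4a3 (rho = 0.698, permutation p = 1e-05 for both), 0.750 for Nr4a1 with Nr4a3 (rho = 0.703) and 0.638 for Nr4a1 with Nr4a2 (rho = 0.555). Without the 2 tumours farthest from the median of the first gene these 3 values of r were 0.694, 0.681 and 0.565. They were 0.930, 0.822 and 0.937 in the 16 allografts and 0.710, 0.715 and 0.557 in the 32 primary tumours. Fos went with Junb (r = 0.671, rho = 0.675, permutation p = 1e-05) and with Nr4a1 (r = 0.548, rho = 0.563). Atf3 passed with 0 of the 8 other members that have a p, its largest r being that with Junb at 0.24. In the allografts alone its r with Fos was 0.820, against 0.040 in the primary tumours, a contrast that was not tested.

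**Figure D4:**
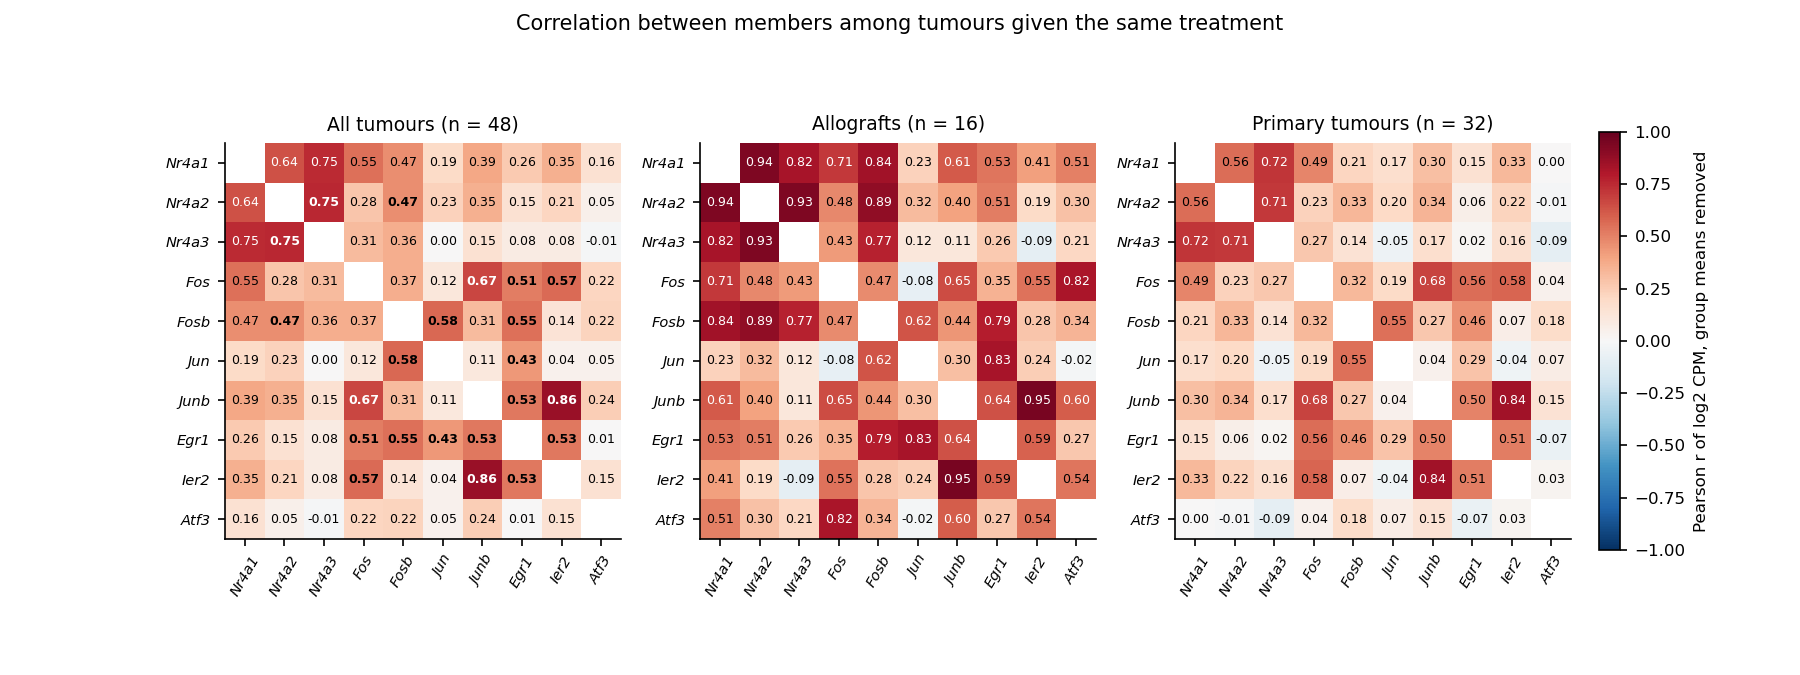
Pearson correlation of log2 CPM between members after removal of group means, in all 48 tumours and within each kind; each cell is 1 pair, the colour scale runs from -1 to 1, and bold values in the first panel have a permutation p below 0.05 after adjustment over 45 pairs, with no call for pairs of Nr4a1. The Nr4a genes form a block with r of 0.64 to 0.75, Junb and Ier2 reach 0.86, and the row of Atf3 stays at 0.24 or below in all tumours.

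Among the 14405 genes averaging 1 CPM or more, those closest to Nr4a1 by the same centred correlation over 48 tumours, given as a description, were Nr4a3 at rank 1 and Nr4a2 at rank 3. The 5 closest genes outside the list were Ipmk, an inositol phosphate kinase (r = 0.694), the AP-1 subunit gene Fosl2 (r = 0.635), Ptgs2, the inducible cyclooxygenase (r = 0.621), Hif1a, the oxygen-regulated subunit of hypoxia-inducible factor (r = 0.597), and Stc1, a secreted glycoprotein (r = 0.590). For Fos they were Zfp36, which promotes the decay of short-lived messenger RNAs (r = 0.779), Bhlhe40 (r = 0.619), the cytokine signalling inhibitor Socs3 (r = 0.564), the antiproliferative gene Btg2 (r = 0.503) and the growth factor gene Ereg (r = 0.5001). By likeness to Nr4a1, Fos had rank 19, Jun rank 2563 and Atf3 rank 3247. All points share the libraries and their depth.

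Other genes of the immediate early programme were mostly not called in the dose comparisons, and those called were higher after 20 Gy apart from Elk3 and Pdk1. Over all genes, 4.40% were called higher in isotype allografts, 7.85% in isotype primary tumours and 6.06% in anti-PD-1 primary tumours, and 0.744%, 6.64% and 1.86% lower. Of 14 further immediate early factors tested, 1 was higher after 20 Gy in isotype allografts (Klf6, log2 fold change 0.63) and 2 in isotype primary tumours (Csrnp1 at 1.01 and Egr2 at 1.08). Of 16 immediate early effectors the numbers were 1 (Ier5, 1.02) and 2 (Ier5 at 0.56 and Gadd45b at 0.69). Among 15 feedback inhibitors, which shorten the response by removing phosphates, transcripts or signalling proteins, 2 were higher in isotype allografts (Zfp36 at 0.92 and the NF-kappaB inhibitor gene Nfkbia at 0.75) and 3 in isotype primary tumours (Zfp36 at 1.03, Nfkbia at 0.71 and Tnfaip3 at 1.28). In anti-PD-1 allografts, where 3.13% of all genes were called higher, 1 factor (Klf6 at 0.70), 1 effector (Ier5 at 0.84) and 3 inhibitors (Dusp2 at 0.97, Zfp36 at 0.66 and Nfkbia at 0.58) were higher. In anti-PD-1 primary tumours 1 of 14 factors was higher (Csrnp1 at 1.22), 4 of 16 effectors (Ier3, Ier5, Gadd45b and Ptgs2, the last at 1.87) and 4 of 15 inhibitors (Zfp36, Nfkbia, Tnfaip3 and Socs3, the last at 1.35), where 6.06% of all genes were. Of the 12 upstream factors, which include serum response factor and its partners, 0 changed with dose in the allografts, and Elk3 was lower in primary tumours, at -0.50 under isotype and -0.43 under anti-PD-1. Of 9 partners of AP-1 proteins, 0 passed in the allografts and Batf, Batf2 and Batf3, factors of lymphoid and myeloid cells, were higher in isotype primary tumours at 1.52, 2.34 and 1.39, with Batf2 higher under anti-PD-1 as well at 1.58. Of the 6 heat shock genes 0 passed in any dose comparison, and of 10 hypoxia genes Pdk1 was lower in isotype allografts at -0.82 and Car9 higher in anti-PD-1 primary tumours at 2.25.

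At baseline, where 6.03% of all genes were called higher in primary tumours and 3.99% lower, the lists held calls in both directions. Of the effectors, 2 were lower in primary tumours, Ptgs2 and Areg with log2 fold changes of -2.44 and -2.80, and 3 were higher, among them Rhob at 0.86 and Gadd45g at 0.84. Of the factors, Nfil3 was lower at -1.51 while Myc and Klf6 were higher at 1.05 and 0.58. The CREB family gene Crem, an upstream factor, was lower at -1.23, and Vegfa, the growth factor of blood vessels and a hypoxia gene, at -1.48, 1 of 10 hypoxia genes called. The medians of these lists lay between -0.31 and 0.06 for factors, effectors and hypoxia genes, against 0.01 over all genes, and 3 of 6 integrated stress response genes were higher (Ddit3 at 1.93, Trib3 at 2.67 and Asns at 1.93).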

How the data were processed

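The authors deposited 1 table of raw read counts per Ensembl gene (whole numbers, not normalised) for 48 tumours. Per the submitters' processing notes, reads were handled with Trimmomatic 0.36, STAR and HTSeq on the mm10 build. The annotation and strand setting are not given in the sources used here, and 0 entries named no gene. Symbols came from GENCODE M21 by gene identifier (36796 of 36854 genes). The members and all gene lists were chosen with earlier results of these data known.

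Counts were filtered with filterByExpr by group, scaled by TMM and tested with edgeR 4.0.16 (glmQLFit and glmQLFTest, R 4.3.3). The Benjamini-Hochberg adjustment ran over every gene in a fit, and a gene was called at an adjusted p below 0.05. The 4 groups of a kind shared 1 fit (17746 genes in 16 allografts, 17770 in 32 primary tumours), the baseline comparison used its 2 groups (17357 genes) and the differences between kinds used all 48 tumours (19327 genes). The SE is the log2 fold change divided by the square root of F, and intervals use the t distribution with the fit's degrees of freedom. Of 16 comparisons, 3 had singled out Nr4a1 and are given without p. The named genes are the 10 members, the list genes called in a comparison (up to 4 per list) and the 5 genes most like Nr4a1 and the 5 most like Fos. The correlations used log2 CPM with a prior count of 2 in Python 3.11.15 with numpy 2.4.6.

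On counts simulated from these libraries, the allograft test recovered 40% of genes changed by a log2 of 1 and 82% of those changed by 2, the primary test 58% and 90%, and the test of a difference between kinds 22% and 72%. Alternatives were DESeq2 1.42.0, its size factors within edgeR, no filter and 1 fit of all tumours. Covariates for muscle markers, Xist and the first digit of the animal identifier were also fitted. In the fits of 1 kind each tumour was left out in turn, but at baseline only each allograft was. For differences between kinds each allograft was left out, and of the primary tumours only replicate 2 of the irradiated anti-PD-1 group. Replicates were numbered in accession order and pair nothing. Labels do not say that extractions were independent beyond 1 tumour each, so p-values measure the spread between tumours. Reads carry no molecular identifiers, so counting error is a lower bound on measurement error.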

Additional observations from a re-analysis of the deposited data

Results flagged for a closer look

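In 9 of 80 sets of 1 gene in 1 group, a single tumour lay farther from the rest than Dixon's 95% critical value for groups of that size. That value assumes normally distributed values, while these were CPM without logs, and the sets share tumours. A share of 5% is therefore no measure of chance here. The flags, those of Nr4a1 included, are given as a description. All 9 were high tumours. Nr4a1 stood at 149.6 CPM in replicate 4 of the irradiated anti-PD-1 allografts, where the next tumour was at 35.2 CPM, at 68.5 CPM in replicate 4 of the unirradiated anti-PD-1 primary tumours (next 29.6 CPM), and at 234.7 CPM in replicate 2 of the irradiated anti-PD-1 primary tumours (next 75.5 CPM). Nr4a2 stood at 102.2 CPM in replicate 7 of the unirradiated isotype primary tumours (next 22.8 CPM), at 72.0 CPM in replicate 4 of the unirradiated anti-PD-1 primary tumours (next 38.6 CPM), and at 46.9 CPM in replicate 3 of the irradiated isotype primary tumours (next 25.2 CPM). Nr4a3 stood at 20.6 CPM in that same replicate 7 (next 7.34 CPM). Fosb stood at 51.6 CPM in replicate 4 of the unirradiated anti-PD-1 allografts (next 13.8 CPM) and at 44.6 CPM in replicate 5 of the unirradiated anti-PD-1 primary tumours (next 16.1 CPM). Replicate 7 of the isotype primary tumours and replicate 4 of the unirradiated anti-PD-1 primary tumours were each high for 2 genes of the Nr4a family.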

How the results depend on the processing

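No paired analysis was possible because replicate numbers were given in accession order and the labels pair no tumours. Counts here are over the 9 members other than Nr4a1. For 20 against 0 Gy in isotype allografts 1 member was called, and DESeq2 called 3 (4.47% of all genes), 1 fit of all 48 tumours 0 (1.92%) and the average over both antibody arms 3 (13.7%). For anti-PD-1 allografts, with 1 called, DESeq2 called 2 (4.76%) and the fit of all tumours 0 (0.595%). In isotype primary tumours, with 1 called, the average over both arms called 3 (26.3%). The 11 pairs without Nr4a1 that passed over all tumours became 6 in the allografts alone. The average over both arms, and leaving out replicate 2 of the irradiated anti-PD-1 primary tumours, were chosen after seeing the data. The cause of these changes was not tested.

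Leaving out 1 tumour at a time gave 0 to 3 called members in each allograft dose comparison (1.63% to 7.85% of all genes under isotype and 1.02% to 7.05% under anti-PD-1), 1 to 2 in isotype primary tumours (9.52% to 17.3%) and 0 to 1 in anti-PD-1 primary tumours (5% to 10.7%), and leaving out 1 allograft gave 1 to 2 at baseline (4.13% to 6.81%; 3 with all tumours). The 3 in the allografts came without replicate 4 of the irradiated anti-PD-1 group (5.21% and 7.05%). The 2 in isotype primary tumours came without replicate 4 of the unirradiated group, and the 1 in anti-PD-1 primary tumours without replicate 2 or 5 of the unirradiated group.

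Signs turned for log2 differences that were not called. Averaged over the arms, Fosb in allografts was -0.287, Nr4a2 in primary tumours 0.213 and the difference between kinds -0.202 for Atf3, 0.0601 for Fosb and 0.178 for Egr1. In anti-PD-1 allografts Fos (0.01) was -0.0137 with DESeq2, -0.00713 with its size factors and -0.0182 in the fit of all tumours. With the identifier digit as a covariate, the anti-PD-1 effect on Nr4a1 in irradiated allografts was -0.279 and the dose effect on Ier2 in anti-PD-1 primary tumours -0.0021. Without 1 tumour at a time, isotype allografts gave -0.0178 to 0.335 for Fosb. Anti-PD-1 allografts gave -0.284 to 0.440 for Fos, -0.116 to 0.212 for Jun, -0.625 to 0.197 for Egr1 and -0.161 to 0.164 for Ier2. The anti-PD-1 effect on Nr4a1 in allografts ranged from -0.489 to 0.532 at 0 Gy and from -0.679 to 0.798 at 20 Gy. Isotype primary tumours gave -0.701 to 0.429 for Nr4a2 and -0.0249 to 0.825 for Nr4a3, and anti-PD-1 primary tumours -0.373 to 0.284 for Fosb and -0.0841 to 0.146 for Ier2. The difference of the Atf3 dose effect between kinds ranged from -0.226 to 0.327.

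Under all alternatives, 2050 of 2157 values kept their direction and side of the threshold. These values cover those 9 members in the baseline and dose comparisons, including the differences of the dose effect between kinds. For the comparisons of anti-PD-1 with isotype they cover only Nr4a2, Nr4a3 and Atf3. The identifier digit could not be fitted at baseline, where it coincides with tumour kind. In the allografts 40% of genes with a simulated log2 change of 1 were recovered and 82% of those with a change of 2.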
